A study of Mus musculus with 29 samples.

Results

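The uteri compared here came from 8 female CD-1 mouse samples collected on gestation day (GD) 5.5, of 29 samples in the whole series, which also holds GD1.5, GD3.5 and GD4.5. The 4 control samples (CON 1 to CON 4) had received corn oil as pups on postnatal days 1 to 5, and the 4 genistein samples (GEN 1 to GEN 4) had received genistein, the soy isoflavone, at 50 mg/kg/day on the same days. Strain and sex were the same in all 8, no mutation or transgene is labelled, and exposure, day and replicate number were read from the sample titles. The title of the series states its purpose, to ask how neonatal genistein disturbs uterine patterning, gland formation and implantation. The labels do not say whether a sample is 1 animal or a pool, or whether replicates came from separate animals. The p-values therefore measure the spread between samples. In the main fit that spread was estimated within groups over all 29 samples. A gene's standard error and p-value can thus differ from what its GD5.5 samples alone would give. Total RNA of whole uterus was labelled with Cy3 and hybridised to single-colour Agilent arrays.

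Genistein is a plant compound that binds estrogen receptors, and the neonatal window is the time when the mouse uterus forms its glands and its pattern along the tract. Around GD5.5 the embryo has attached, and the stroma next to it turns into decidua: the cells enlarge, divide, become polyploid, and make prolactin-family hormones, BMP2, WNT4 and diamine oxidase. Glands support this step with secreted factors, and the decidua is later filled with uterine natural killer cells and new vessels. In whole tissue, fewer cells of a type and less RNA per cell cannot be told apart.

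The arrays were of similar quality. Between 65.5 and 78.3% of spots were well above background, the 75th percentile of intensity was 734 to 995, no array had more than 2 saturated spots, and 49 to 149 spots per array carried a scanner mark and were set to missing. Levels below are log2 intensities minus the array's 75th percentile, so a level of 0 is the brightness of that percentile. Uterine identity genes were bright on all 8 arrays: Hoxa10 lay at 3.73 to 4.10 and Hoxa11 at 4.37 to 5.06. The progesterone receptor gene Pgr was at -1.62 to -0.80 and the estrogen receptor gene Esr1 at 0.94 to 1.59, and the groups overlapped for all of these genes.

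GEN 4 stood apart from its group. Across genes its mean correlation with the other 3 GEN arrays was 0.970, against 0.981 with the 4 CON arrays, and its closest array was CON 4 (r = 0.988), which shared its slide. GEN 4 thus resembled the CON arrays more than its labelled group, and whether its label is right was not tested. On the first principal component of the 8 arrays (33.6% of the variance) GEN 4 and CON 4 lay at -63.5 and -60.1 and the other 6 arrays between -10.0 and 51.0. Results are therefore given with all 8 arrays and, for some genes and lists, without GEN 4. GEN 4 was singled out after its likeness to CON was seen. Leaving out the GEN array most like CON tends to widen the differences. Calls and p-values without GEN 4 are therefore no separate support for any gene. CON and GEN replicates 1, 2 and 4 each shared a slide (slides 7, 6 and 8), CON 3 lay on slide 5 and GEN 3 on slide 7. For some genes and lists, differences within slides are given as well.

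With all 8 arrays, 0 of 20828 genes tested (0%) passed an adjusted p of 0.05 in limma's fit, so no gene is described here as risen or fallen. The smallest adjusted p was 0.0694. At an unadjusted p under 0.05 there were 1147 genes (5.51%), 464 higher in GEN (2.23%) and 683 lower (3.28%). The 4 GEN arrays lay wholly apart from the 4 CON arrays for 358 genes (1.72%), above them for 184 (0.883%) and below for 174 (0.835%). The median difference over all genes was -0.01 and its median standard error 0.21 on the log2 scale.

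**Figure D1:**
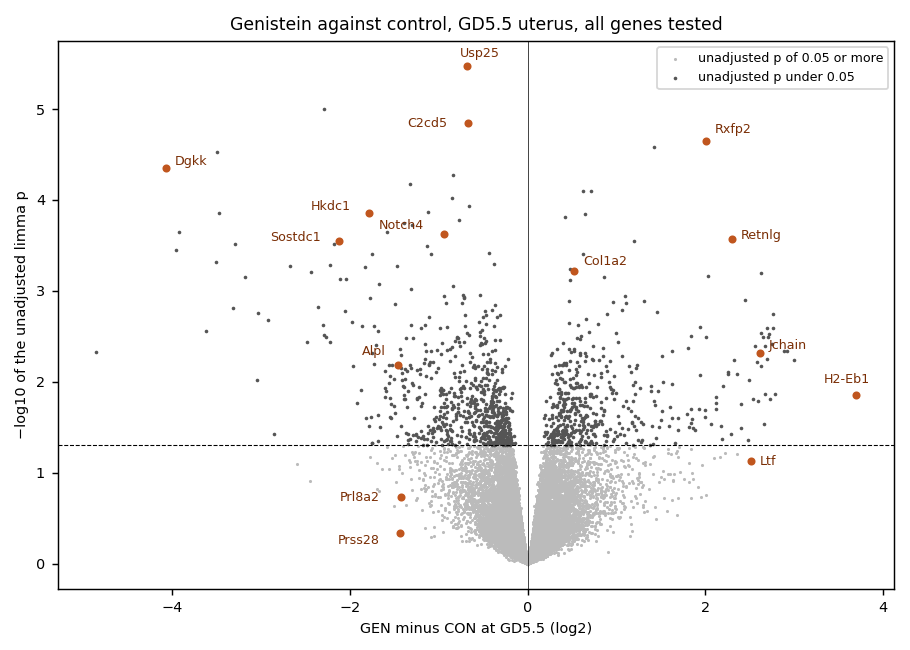
Each point is a gene tested at GD5.5; the horizontal axis is the GEN minus CON difference in log2 and the vertical axis is −log10 of the unadjusted limma p, with a dashed line at 0.05. Usp25 has the smallest p, and the labelled points are genes described in the text, among them Prl8a2, Prss28 and Ltf, which lie below the line.

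Leaving out single arrays moved the count only for some of them. Without CON 1, CON 3, GEN 1, GEN 2 or GEN 3 there were 0 calls, without CON 4 there was 1 (Rxfp2) and without CON 2 there were 4. Without GEN 4 there were 257 calls (1.23% of genes tested), 46 higher and 211 lower in GEN, and without both GEN 4 and CON 4 there were 169, of which 148 were among the 257. Of the 257 genes, 235 also had an unadjusted p under 0.05 with all 8 arrays. On GEN 4 itself, 156 of the 257 (60.7%) lay inside the range of the CON arrays, against 65.5% of all genes tested. Array weights, which let noisy arrays count less, gave 64 calls, 17 higher and 47 lower.

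The 24 named genes with the smallest p were picked after their values were seen. They comprised 7 higher and 17 lower in GEN, with adjusted p from 0.0694 to 0.221. The groups did not overlap for 16 of them, 4 above and 12 below CON (1.72% of all genes, in either direction). Without GEN 4, 23 of the 24 were called (1.23% of all genes), all but Armh4 (adjusted p = 0.0570 in limma). Without both GEN 4 and CON 4, 18 of the 24 were called. The 24 were chosen by p on these same arrays, so these counts are no separate support for them. For 19 of the 24 the sign was the same within each of the 3 slides that held both exposures. Those slides hold the arrays that gave the p-values, so equal signs are no independent check of the 24.

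Usp25 encodes a deubiquitinating enzyme, and its probe lies at chr16:77113467-77113526 (mm7). It stood at 0.83, 0.96, 0.66 and 0.91 in CON 1 to 4 and at 0.12, 0.24, -0.11 and 0.37 in GEN 1 to 4. Every GEN array lay below every CON array. The difference was -0.69 (SE 0.11, 1.61-fold, adjusted p = 0.0694 in limma) and -0.82 to -0.54 within slides, and a further probe of the gene gave -0.68. Usp25 was called in 8 of 25 alternatives. Among these were leaving out GEN 4 (-0.76, adjusted p = 0.00185) and testing only probes above background on all arrays (adjusted p = 0.0427). A variance trend and robust fit (0.0359) and the mean over probes (0.0102) called it too. Over the alternatives its adjusted p in limma reached 0.635, and on leaving out 1 array it reached 0.195. At GD4.5 its difference was 0.00. C2cd5, a gene of insulin-responsive vesicle transport, showed the same layout, at 0.32 to 0.68 in CON and -0.51 to 0.12 in GEN, a difference of -0.67 (SE 0.12, adjusted p = 0.0994; -0.65 and adjusted p = 0.0153 without GEN 4).

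Of 22 genes called at GD4.5 that were also tested at GD5.5, 16 had the same sign on both days (45.9% of all genes tested did), 7 of them with an unadjusted p under 0.05 (5.51% of all genes, in either direction). For 5 the groups lay apart in that direction (1.72% of all genes, in either direction). Hkdc1, a hexokinase domain gene, was one of those 5. It stood at -2.77, -2.77, -2.65 and -1.88 in CON and at -4.48, -4.86, -4.65 and -3.23 in GEN, so that all GEN arrays were lower. The Hkdc1 difference was -1.79 (SE 0.39, 3.45-fold, adjusted p = 0.175) against -3.52 at GD4.5, and without GEN 4 it was -2.15 (adjusted p = 0.00594). Sp5, a transcription factor gene that responds to Wnt signals, lay at -3.79 to -3.19 in CON and -5.11 to -4.02 in GEN (-1.15, SE 0.40, adjusted p = 0.623). Sbspon lay at -1.16 to -0.76 in CON and -2.21 to -1.44 in GEN (-0.77, SE 0.36). By contrast Bpifb5, Cyp3a25, Nlrp6 and Akr1c19, whose GD4.5 differences were -4.21, -3.19, -3.07 and -2.70, had overlapping groups at GD5.5 and differences of -0.81, -0.25, -0.63 and -0.20.

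Several of the other leading genes depended on where GEN 4 lay. Dgkk, a diacylglycerol kinase gene, stood at -1.64, -1.98, -0.46 and -1.56 in CON and at -7.58, -4.58, -7.79 and -1.98 in GEN. GEN 1, 2 and 3 were far below CON while GEN 4 only touched the lowest CON array, and the probe was above background on 2 GEN arrays. The Dgkk difference was -4.07 (SE 0.81, adjusted p = 0.134), and -5.24 without GEN 4 (adjusted p = 3.58e-04). Its SD at GD5.5 was 0.66 in CON and 2.76 in GEN. At GD4.5, where the probe was too dim to be tested, the SDs were 0.17 and 0.47. Those arrays also enter the standard error, which therefore understates the GD5.5 spread. Over the alternatives the adjusted p of Dgkk in limma reached 0.9997. Rxfp2, the receptor gene for INSL3, had the reverse layout: CON 1 to 3 lay at -5.49 to -5.18 and GEN 1 to 3 at -2.91 to -2.44, with CON 4 at -3.92 and GEN 4 at -3.95. Its difference was 2.00 (SE 0.38, adjusted p = 0.102), and its probe was above background on 2 CON and 4 GEN arrays; its second probe, above background on 1 array of each group, gave 0.05. Fam151b showed a small but even difference, with CON at -3.23 to -2.94 and GEN at -2.83 to -2.50 (0.43, SE 0.09, adjusted p = 0.177; 0.40 to 0.51 within slides).

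**Figure D2:**
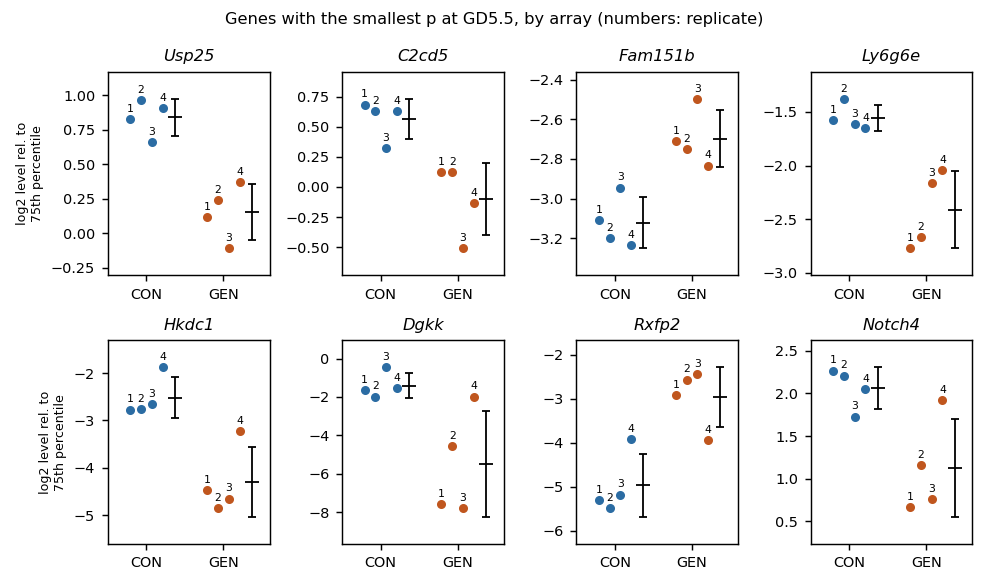
Levels of 8 genes with small p at GD5.5, in log2 relative to the array's 75th percentile, for 4 CON and 4 GEN arrays; the digit is the replicate and the bar the mean ± SD (n = 4). Usp25, C2cd5, Fam151b, Ly6g6e and Hkdc1 do not overlap between groups, Dgkk barely so, and for Rxfp2 and Notch4 GEN 4 lies among the CON arrays.

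Among the remaining leading genes, Etnk1, an ethanolamine kinase gene, differed by -0.84 (SE 0.17) with -0.71 and -0.80 for its other probes, and St8sia4, a polysialyltransferase gene, by -0.77 (SE 0.17). The 3-beta-hydroxysteroid dehydrogenase genes Hsd3b5 and Hsd3b6 differed by -1.32 (SE 0.27) and -2.18 (SE 0.51). Their probes were above background on 4 CON arrays each, and on 2 and 3 GEN arrays. Within slide 8 Hsd3b6 differed by 0.33. Both genes belong to a family of near-identical copies whose probes may not be told apart. Aldh4a1, a proline catabolism gene, differed by -1.58 (SE 0.36, and -0.67 on its other probe) and Sostdc1, a secreted BMP and Wnt antagonist gene, by -2.13 (SE 0.50). The Sostdc1 probe was above background on 4 CON and 3 GEN arrays. Tesc (-1.39), Extl1 (-1.12), Armh4 (-1.13), Ly6g6e (-0.86) and Klf8 (-0.66) were lower too; the second probes of Ly6g6e, Extl1 and Klf8 gave -0.41, -0.34 and 0.08, the last 2 of them dim on several arrays. On the higher side were Cela1, an elastase gene, at 0.72 (SE 0.15), Dnm1, the dynamin 1 gene, at 0.65 (SE 0.14), and Itgb3bp, a centromere protein gene, at 1.20 (SE 0.28; 0.75 on its other bright probe). Agr2, a disulfide isomerase gene of mucus-secreting epithelium that was singled out after its values were seen, lay at 2.19 to 3.81 in CON and 1.20 to 1.71 in GEN (-1.47, SE 0.37, adjusted p = 0.275), with -1.47 at GD4.5 as well.

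The decidual genes did not separate the groups. Prl8a2, the decidual prolactin-related protein gene, stood at 3.90, 3.98, 3.92 and 1.98 in CON and at 3.15, 1.58, -1.02 and 4.37 in GEN. The highest and the lowest of the 8 arrays were both GEN, and GEN 3 stood far below all others. The Prl8a2 difference was -1.43 (SE 1.04, adjusted p = 1.00). Prl3c1, another prolactin-family gene, behaved alike, with 1.32 to 2.93 in CON and 1.74, 1.29, -4.16 and 3.33 in GEN (-1.69, SE 1.14). Bmp2, the decidual morphogen gene, stood at 1.20 to 1.85 in CON and at 1.61, 0.81, -0.32 and 1.61 in GEN (-0.57, SE 0.54), Wnt4 at 2.35 to 2.75 and at 3.19, 2.36, 1.51 and 2.89 (-0.16, SE 0.45), and Hand2, a progesterone-induced stromal factor gene, at 1.75 to 2.26 and at 1.99, 1.57, 0.87 and 2.09 (-0.39, SE 0.31). GEN 3 was the lowest array for each of these genes. Aoc1, the diamine oxidase gene, was 5.88 to 6.64 in CON and 6.22, 5.16, 3.74 and 6.56 in GEN (-0.84, SE 0.97).

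Alpl, the alkaline phosphatase gene used as a mark of decidual cells, stood at 4.60, 4.74, 2.65 and 2.74 in CON and at 2.42, 1.94, 1.62 and 2.92 in GEN. CON 1 and CON 2 were well above all other arrays, while CON 3 and CON 4 were near GEN 4. The Alpl difference was -1.46 (SE 0.49, adjusted p = 0.589). Of 26 decidual products tested, 11 were higher and 15 lower in GEN, with a median of -0.04; at an unadjusted p under 0.05, Dcn (0.51) and Mmp2 (0.43) were higher and Alpl and Cryab (-0.94) lower. Of 24 regulators of decidualization, 9 were higher and 15 lower (median -0.08, its sign turning without GEN 3 and that of the products without GEN 4); Lifr, the LIF receptor gene (0.84), and Nr2f2 (-0.30) were below that p. The other 3 Lifr probes above background on most arrays gave 0.33, 0.23 and -0.04. Without GEN 4, Lifr, Dcn and Cryab were called (adjusted p = 0.0491, 0.0345 and 0.0122).

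GEN 3 was the lowest of the 8 arrays for 9 of the 26 decidual products and 10 of the 24 regulators, against 18.1% of all genes tested. It was the highest for 7 and 5 of them, against 17.6% of all genes. GEN 3 was also lowest for 24 of 31 cell cycle genes (77.4%), whose list lay at -0.46 in GEN 3, the median over the list of each gene's distance from its CON mean, and at -0.03 to 0.12 in the other 3 GEN arrays. Of the 31, 6 were higher and 25 lower in GEN (median -0.08, against -0.01 over all genes), and the sign turned without GEN 3; Ccnd2 (0.59) and Cdk6 (0.65), both G1 cyclin pathway genes, were the members with an unadjusted p under 0.05, and both were higher in GEN. The same array was lowest for 5 of 13 embryo and trophoblast markers. Prl3d1, the placental lactogen gene of trophoblast giant cells, stood at 1.16, 1.85, 2.25 and 0.81 in CON and at 2.19, 0.22, -2.24 and 2.08 in GEN. Whether the share of implantation-site tissue differed between samples was not tested. The list of these markers had 5 higher and 8 lower (median -0.07), and its median level per array was -0.14 to 0.18 in CON and -0.24 to 0.09 in GEN.

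**Figure D3:**
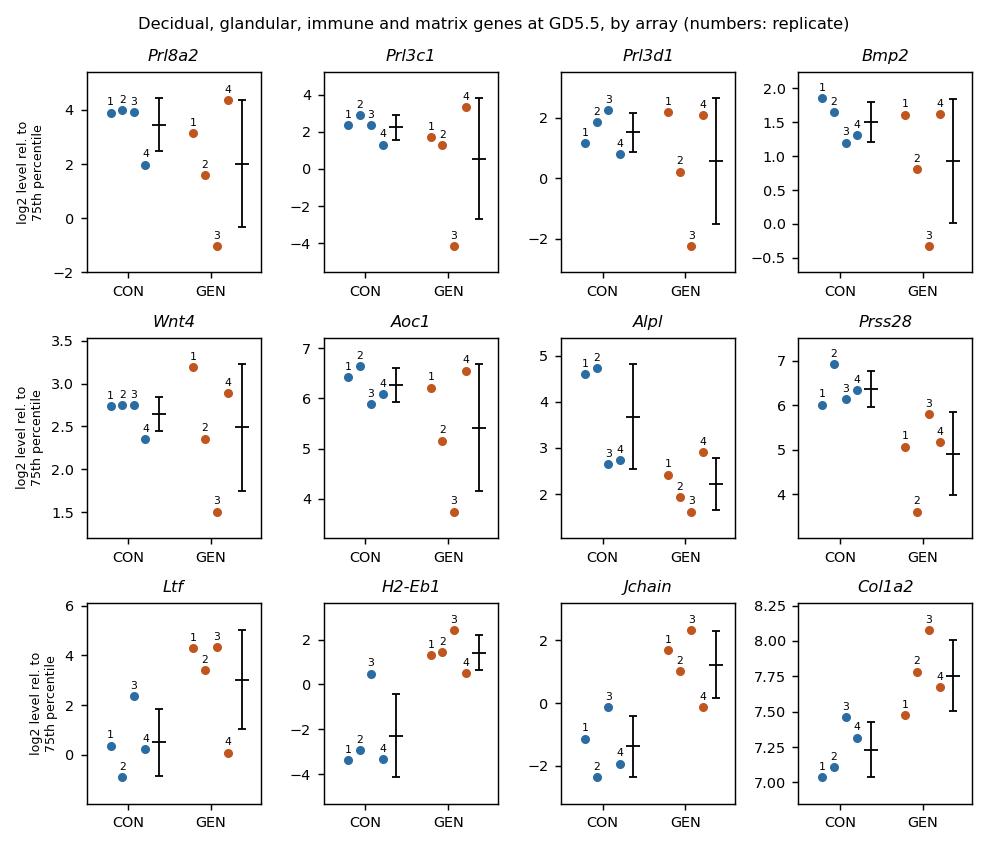
Levels of 12 decidual, trophoblast, glandular, immune and matrix genes at GD5.5, drawn as log2 relative to the 75th percentile with replicate digits and mean ± SD (n = 4 per group). GEN 3 is the lowest array for Prl8a2, Prl3c1, Prl3d1, Bmp2, Wnt4 and Aoc1; the groups do not overlap for Prss28, H2-Eb1 and Col1a2.

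The genes of steroid action showed small differences. Of 18 tested, 10 were higher and 8 lower (median 0.03, with the sign changing under 4 of 25 alternatives), and Ncoa3, a steroid receptor coactivator gene, was the member with an unadjusted p under 0.05 (-0.35). Esr1 differed by -0.17 (SE 0.17), Pgr by -0.09 (SE 0.18) and Hoxa10 by -0.18 (SE 0.12). Ihh, the hedgehog ligand that relays progesterone from epithelium to stroma, differed by 0.51 (SE 0.53), and by 0.01 on its other probe. Ptgs2, the cyclooxygenase 2 gene, differed by -0.78 (SE 0.79), Hbegf by -0.04 (SE 0.29) and Areg by -0.69 (SE 1.16). Each of these groups overlapped.

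Gland genes gave mixed differences. Prss28, an implantation serine proteinase gene of the glands, stood at 6.02, 6.93, 6.15 and 6.35 in CON and at 5.08, 3.62, 5.81 and 5.18 in GEN. All 4 GEN arrays lay below all 4 CON arrays, by -3.31 to -0.57 within slides. The difference was -1.44, but its standard error in the fit of all days was 1.92 (adjusted p = 1.00), as the gene varies widely in the other groups of the series. Its neighbour Prss29 lay at 5.18 to 6.45 in CON and 3.74 to 5.35 in GEN (-1.06, SE 1.52), and Foxa2, a gland transcription factor gene, at -1.59 to -0.99 and -2.47 to -0.89 (-0.53, SE 0.38). At GD4.5 the differences of Prss28, Prss29 and Foxa2 were -3.18, -3.18 and -1.76; the change of difference between the days was not called for any of them. Of 16 genes of gland and luminal secretions, 10 were higher and 6 lower (median 0.26, or 0.15 without GEN 3, against -1.71 at GD4.5), and Ttr, the transthyretin gene, was the one with an unadjusted p under 0.05. Ttr was well above background on 3 CON arrays and on no GEN array, so the difference of its group means has only a bound. That bound was 1.09-fold, lower in GEN, taking the lowest signal well above background for a dimmer probe. The Ttr groups overlapped, it was not called (adjusted p = 0.809 in limma), and within slide 8 it differed by -0.03. Of 14 epithelial transcription factors 8 were higher and 6 lower (median 0.08); Spdef had -0.55 (SE 0.38).

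Ltf, the lactoferrin gene, which estrogen induces in uterine epithelium and which neutrophils also carry, stood at 0.37, -0.90, 2.35 and 0.24 in CON and at 4.29, 3.43, 4.33 and 0.09 in GEN. GEN 1, 2 and 3 were above every CON array and GEN 4 was within the CON range. The difference was 2.52 (SE 1.35, adjusted p = 0.968), still not called without GEN 4 (adjusted p = 0.237), and -2.93 at GD4.5. Of 17 genes high in the estrogen phase, 13 were higher and 4 lower (median 0.35), none with an unadjusted p under 0.05; Fxyd4 had 1.86 (SE 1.14), Lcn2 1.72 (SE 1.00), Calb1 1.52 (SE 0.88) and Sprr2f 1.41 (SE 0.83). Without GEN 3, the highest array for 11 of the 17, the median was 0.11. The list lay at -0.33 to 0.20 in CON and at 0.35, 0.29, 1.49 and -0.15 in GEN 1 to 4. Of 18 epithelial identity markers 9 were higher and 9 lower (median 0.09, -0.24 to 0.22 in CON and -0.53 to 0.79 in GEN), and Prom1, a gene of apical membrane protrusions, had -0.85 (SE 0.34), with all GEN arrays below CON.

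Immune genes mostly lay on the higher side. MHC class II genes, which present antigen, had the largest median of the 36 lists: 6 of 7 were higher, with a median of 0.88, and 3 had an unadjusted p under 0.05, H2-Eb1, H2-Ab1 and H2-DMa (2.23% of all genes were higher at that p). H2-Eb1 stood at -3.35, -2.93, 0.49 and -3.32 in CON and at 1.31, 1.46, 2.44 and 0.49 in GEN. The lowest GEN array, GEN 4, was just above the highest CON array, CON 3. The H2-Eb1 difference was 3.70 (SE 1.39, adjusted p = 0.699). H2-Ab1 differed by 1.40 (SE 0.61), with 1.48 to 1.89 for its other probes, H2-DMa by 0.88 (SE 0.42) and Cd74, the invariant chain gene, by 1.00 (SE 0.60). H2-DMb1 was the exception at -1.18, where GEN 1 lay at -4.56 and the other 7 arrays between -0.33 and 1.05. The list lay at -0.95, 0.16, 0.63 and -0.02 in CON and at 0.92, 0.85, 1.50 and 0.11 in GEN, so GEN 4 was within the CON range and GEN 3 was the highest array for 7 of the 7 genes; at GD4.5 the median was -0.33.

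Neutrophil markers were higher in 9 of 10 (median 0.57; -0.36 to 0.31 in CON and 0.21 to 1.37 in GEN), and for 4 of the 10 the GEN arrays lay wholly above CON (0.883% of all genes did). Retnlg, a neutrophil granule gene, stood at -4.28, -3.95, -4.70 and -5.30 in CON and at -3.13, -0.86, -2.39 and -2.65 in GEN. Every GEN array was higher, GEN 2 most of all. The Retnlg difference was 2.30 (SE 0.54, adjusted p = 0.220; 1.52 to 3.09 within slides). S100a9, Mpo and Cxcr2 had 1.31 (SE 1.17), 0.51 (SE 0.30) and 0.53 (SE 0.90), and Ltf, told above, is on this list too. B and plasma cell markers were higher in 6 of 9 (median 0.50, and 0.26 without GEN 3). Jchain, the joining chain of IgA and IgM, stood at -1.13, -2.35, -0.12 and -1.93 in CON and at 1.70, 1.02, 2.34 and -0.14 in GEN. GEN 4 was just below CON 3 and the other GEN arrays were above all of CON. The Jchain difference was 2.61 (SE 0.84, adjusted p = 0.555), and on single slides it ran from 1.79 to 3.37. Mzb1 and Pou2af1, with 0.82 (SE 0.81) and 0.86 (SE 0.69), did not overlap.

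Natural killer cell markers were higher in 16 of 19 (median 0.38, and 0.20 without GEN 2 to 0.60 without GEN 4), with 1 member each way at an unadjusted p under 0.05. Gzma, a granzyme gene of uterine natural killer cells, lay at 0.08 to 1.51 in CON and 1.14 to 2.19 in GEN (1.13, SE 0.50, adjusted p = 0.840), whereas the receptor gene Klrk1 had -1.39 (SE 0.52). The Klrk1 probe was dim, above background on 3 CON arrays and 1 GEN array. Klra5, a receptor gene of the same cells outside the list and singled out after its values were seen, lay at -3.62 to -3.08 in CON and -6.74 to -5.02 in GEN (-2.23, SE 0.55, adjusted p = 0.275). Macrophage and dendritic cell markers were higher in 13 of 14 (median 0.39; -0.49 to 0.45 in CON and -0.25 to 0.92 in GEN) with none at an unadjusted p under 0.05. GEN 3 was the highest array for 12 of the 14 (17.6% of all genes), and without it the median was 0.17. Itgax had 0.65 (SE 0.42) on the probe used and -0.03 on its other. Of 22 chemokine and complement genes 14 were higher and 8 lower (median 0.23, and 0.05 without CON 1), with 1 member each way at an unadjusted p under 0.05. Ccl11, the eosinophil chemokine gene, stood at -3.66 to -2.73 in CON and at -2.31, -1.66, -1.38 and -3.57 in GEN (1.10, SE 0.30, adjusted p = 0.409), and without GEN 4 it was called (1.55, adjusted p = 7.37e-04). T cell markers, mast cell and eosinophil markers and interferon response genes had medians of 0.12, 0.22 and -0.10. Kit, on the mast cell and eosinophil list, was the only member of these lists with an unadjusted p under 0.05. It was lower in GEN (-0.68, SE 0.26).

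**Figure D4:**
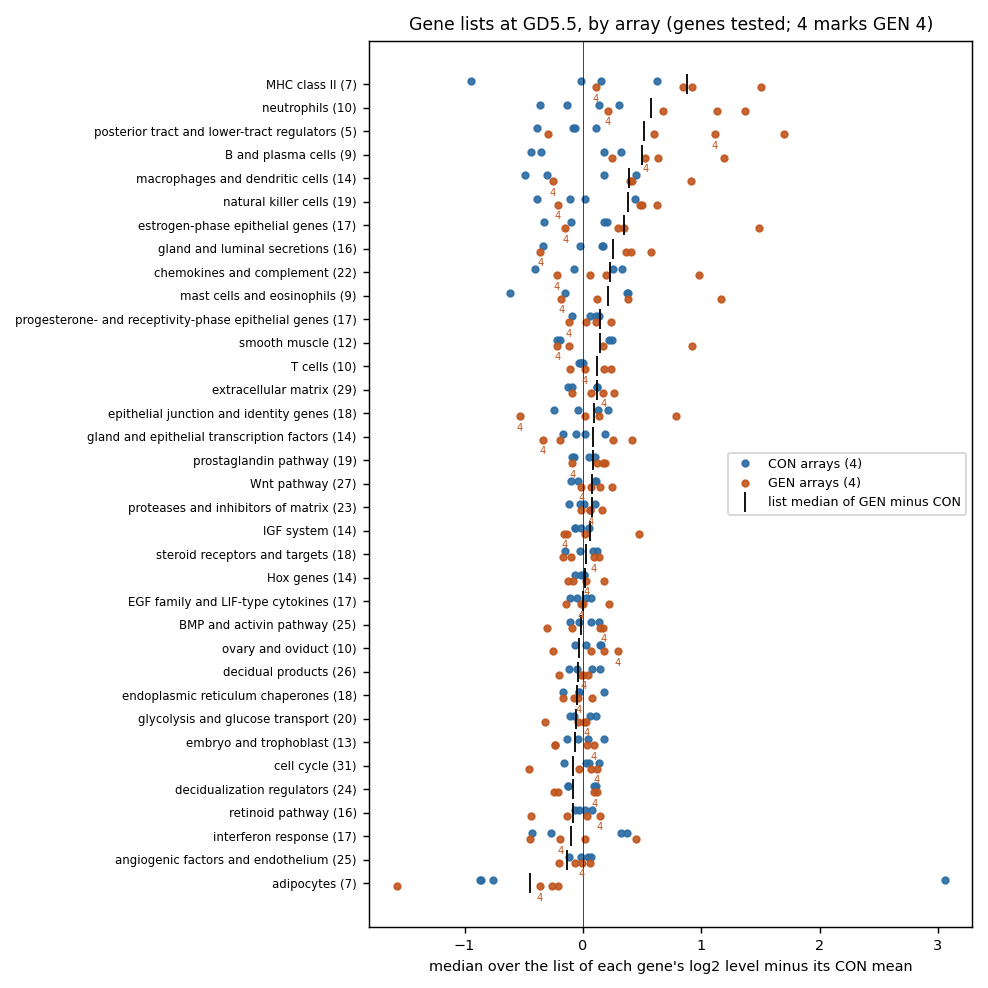
For each list of at least 5 genes tested, the median over its genes of the log2 distance from the CON mean on each of the 8 arrays, with the list's median difference as a bar; lists are ordered by that difference and a 4 marks GEN 4. GEN 4 lies within the CON range for MHC class II, estrogen-phase and natural killer cell genes, and CON 3 stands far out for adipocyte markers.

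Structural genes of the stroma were slightly higher. Of 29 extracellular matrix genes 18 were higher and 11 lower (median 0.12, 0.04 without CON 2, and negative under the normexp background correction); 6 had an unadjusted p under 0.05, all higher in GEN (2.23% of all genes were). Col1a2, a chain of type I collagen, stood at 7.04, 7.11, 7.46 and 7.32 in CON and at 7.48, 7.78, 8.08 and 7.67 in GEN. The groups did not overlap, though GEN 1 and CON 3 nearly met. The Col1a2 difference was 0.52 (SE 0.13, adjusted p = 0.291; 0.36 to 0.74 within slides). Lum, Col6a1, Col6a2, Dcn and Col3a1 had 0.60, 0.59, 0.57, 0.51 and 0.30, and Col6a1, Col6a2 and Dcn were called without GEN 4. Smooth muscle markers lay at -0.22 to 0.25 in CON and -0.22 to 0.92 in GEN, 0.92 in GEN 3, so the matrix genes and muscle markers were both highest there; their part in each other was not tested. Of 23 matrix proteases and inhibitors, Mmp3 (0.97), Mmp9 (0.88), Mmp16 (0.48) and Mmp2 (0.43) were higher at an unadjusted p under 0.05.

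Vessel genes were on the lower side: of 25 angiogenic and endothelial genes 8 were higher and 17 lower (median -0.13, but -0.01 without GEN 3, the lowest array for 12 of the 25), and the 4 with an unadjusted p under 0.05 were all lower (3.28% of all genes were). Notch4, an endothelial Notch receptor gene, stood at 2.27, 2.21, 1.73 and 2.05 in CON and at 0.66, 1.16, 0.75 and 1.92 in GEN. GEN 1, 2 and 3 were below every CON array and GEN 4 was above CON 3. The Notch4 difference was -0.94 (SE 0.22, adjusted p = 0.206), and -1.21 without GEN 4 (adjusted p = 0.00185). Cdh5, the VE-cadherin gene, had -0.58 (SE 0.21), Angpt2 -0.51 (SE 0.20) and Flt1, a VEGF receptor gene, -0.34 (SE 0.15); none of these was called without GEN 4 either. The list lay at -0.11 to 0.07 in CON and -0.20 to 0.06 in GEN.

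Signalling and metabolic lists had medians near that of all genes. In the Wnt list 16 of 27 were higher (median 0.07), with Sp5 and Dkk1 (-1.33, SE 0.62) lower at an unadjusted p under 0.05. In the BMP and activin list 11 of 25 were higher (median -0.02); Bmp4 lay at -0.77 to -0.13 in CON and -0.12 to 0.23 in GEN (0.43, SE 0.17), and Bmp8a stood at 0.81 to 1.66 in CON and at 0.03, -0.40, -2.17 and 1.53 in GEN (-1.41, SE 0.50; called without GEN 4, adjusted p = 0.0241). In the retinoid list 6 of 16 were higher (median -0.09). Rbp4, the retinol carrier gene, had 0.72 (SE 0.32) and the receptor gene Rxra -0.43 (SE 0.17; called without GEN 4), and Crabp1, a retinoic acid binding protein gene, lay at -2.30 to -1.23 in CON and -4.50 to -2.65 in GEN (-1.50, SE 0.53). Glucose handling genes were higher in 8 of 20 (median -0.06), with Hkdc1 and the glucose transporter gene Slc2a1 (-0.73, SE 0.26) lower at an unadjusted p under 0.05, both called without GEN 4. Among 18 chaperones of the endoplasmic reticulum 3 were higher and 15 lower (median -0.05). Dnajb9, a co-chaperone gene of that compartment, stood at 0.67, 0.96, 0.93 and 0.76 in CON and at 0.35, 0.32, 0.52 and 0.39 in GEN. The Dnajb9 arrays did not overlap, and the difference was -0.44 (SE 0.11, adjusted p = 0.236).

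The prostaglandin, IGF and EGF/LIF lists had medians of 0.08, 0.06 and 0.00, and the Hox list 0.02, with Hoxa7 (0.75, SE 0.26) and Hoxb2 (0.55, SE 0.20) higher at an unadjusted p under 0.05. Ptgir, the prostacyclin receptor gene, had 0.78 (SE 0.28; 0.35 on its other probe) and Nrg1, a neuregulin gene, 0.85 (SE 0.27; 0.50 on its other bright probe). Of 5 posterior tract regulators tested 4 were higher (median 0.51, and 0.12 without GEN 3), and Krt5, a basal keratin gene, had 1.62 (SE 0.58); it stood at -4.95 to -2.47 in CON and -3.11, -2.71, -0.49 and -2.78 in GEN. Receptive-phase epithelial genes, ovary and oviduct markers and red blood cell markers had medians of 0.14, -0.04 and -0.06. Adipocyte markers were lower in 7 of 7 (median -0.45), but CON 3 alone was high, at 3.06 against -0.87 to -0.76 in the other CON arrays, and without CON 3 the sign of the median turned. Over the 539 list genes tested, 29 (5.38%) were higher and 23 (4.27%) lower in GEN at an unadjusted p under 0.05.

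The difference between exposures was then compared with that at GD4.5, which had 4 other CON and 4 other GEN arrays, spread over the same slides 5 to 8. The change of difference was called for 1 of 22549 genes tested (0.00443%), and 1679 (7.45%) had an unadjusted p under 0.05. The gene was Banp, which encodes a nuclear matrix protein that binds unmethylated CG-rich promoters; its probe lies at chr8:120667863-120667922 (mm7). At GD4.5 Banp lay at 1.39 to 1.58 in CON and 1.90 to 2.52 in GEN. At GD5.5 it stood at 1.98, 1.94, 1.84 and 1.93 in CON and at 1.59, 1.52, 1.43 and 1.66 in GEN. The groups were apart on both days, in opposite directions: GEN minus CON was 0.70 at GD4.5 and -0.37 at GD5.5, a change of -1.08 (SE 0.16, adjusted p = 0.0119 in limma). Leaving out any 1 GD5.5 array kept the call (adjusted p up to 0.0497), but with the replicate number as a block Banp was at adjusted p = 0.0660, with slide as a fixed block at 0.213, and with only the 16 arrays of the days compared at 0.329.

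Fech, the last enzyme of heme synthesis, and Cyp2s1, a cytochrome P450 gene, came next and were not called (adjusted p = 0.0573 each). Fech differed by -0.82 at GD4.5 and 0.29 at GD5.5, where its second probe gave -0.24. Cyp2s1 differed by 0.89 and -0.45; its groups did not overlap on either day, with 3.11 to 3.45 in CON at GD5.5, 2.69 to 2.82 in GEN 1 to 3 and GEN 4 just below the lowest CON array. Without GEN 4, 65 genes were called for the change between days.

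**Figure D5:**
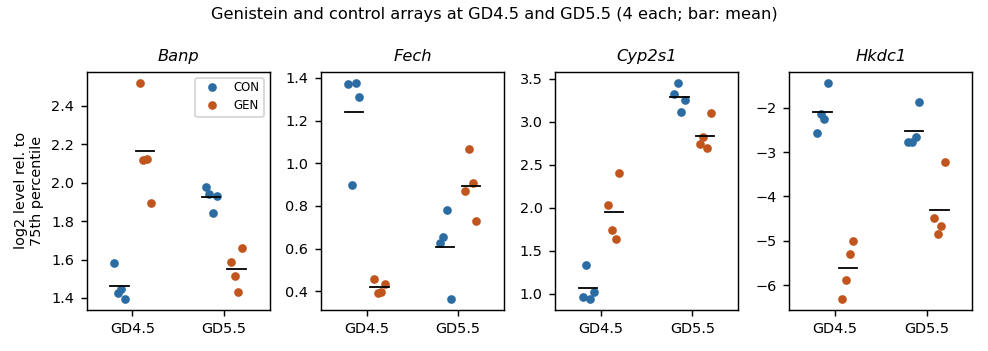
Levels of 4 genes on the 4 CON and 4 GEN arrays of GD4.5 and of GD5.5, in log2 relative to the 75th percentile; the bar is the mean. Banp and Cyp2s1 are higher in GEN at GD4.5 and lower at GD5.5, Fech shows the reverse with overlap at GD5.5, and Hkdc1 is lower in GEN on both days.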

How the data were processed

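The 8 GD5.5 arrays, and the other 21 for the common estimate of spread, are Agilent 44K single-colour mouse arrays scanned and summarised by the authors with Agilent Feature Extraction 9.5, per the submitters' processing notes. The deposited values used are processed-signal intensities, background-subtracted per the file headers and not scaled between arrays; the probe positions in them are of build mm7. Spots marked as non-uniform or population outliers were left out, spots of a probe averaged, and log2 intensities set relative to each array's 75th percentile. Each gene was read from its brightest probe (41174 probes, 27670 genes; 22951 probes were named through their accession, and 8455 kept the name in the scanner files). One limma 3.58.1 model (R 4.3.3) of all 29 arrays with a mean per group gave differences, standard errors and Benjamini-Hochberg adjusted p-values over all genes tested, those well above background on at least 3 of the arrays compared; a call is an adjusted p under 0.05. The procedure was tested on simulated data. With a true log2 difference of 1, 28 of 50 genes were called, and with 2, 46 of 50. Of 20628 unchanged genes 14 were called. The simulated spread was independent between arrays, so that test did not cover shared deviations of replicates or an outlying array. The number of arrays limits the precision.

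Samples of equal replicate number deviated together from their group means (correlations 0.36, 0.39, 0.25 and 0.51 for numbers 1 to 4, each above that with any other number), so the numbers were taken as pairs in an alternative with the number as a block. Pairs 1, 2 and 4 also shared a slide. That block left 0 calls at GD5.5 and ended the call for Banp.

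The comparison and the gene lists were chosen with earlier results of these data known. The rule for named genes took called genes with non-overlapping groups, a set of key genes (17 of 18 had a probe), and the 2 members of each list with the largest difference; as no gene was called, the 24 smallest p-values and the list members with an unadjusted p under 0.05 were named instead, after their values were seen. Of 584 listed genes 573 had a probe and 539 were tested. Alternatives changed the background correction, scaling, filter, probe rule, slide or replicate block, arrays in the fit, array weights and variance model, and left out each array in turn. Some genes are not reported here.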

Additional observations from a re-analysis of the deposited data

Results flagged for a closer look

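Single arrays stood apart from the other 3 of their group in 20 of 378 gene and list groups examined, where about 1 in 20 would do so by chance. CON 4 was low for Wnt4 (2.35, the others 2.74 to 2.75) and Prl8a2 (1.98, the others 3.90 to 3.98), both decidual genes, and high for Hkdc1 (-1.88). CON 3 was high for the adipocyte list (3.06), the red blood cell list (1.70), its heme synthesis gene Alas2 (2.50) and H2-Eb1 (0.49), and low for C2cd5 (0.32) and Cdk6 (0.99). CON 1 was low for Bpifb5 (-2.89), and CON 2 high for Rbp4, the retinol carrier gene (2.17).

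Among the GEN arrays, GEN 4 was low for the natural killer cell list (-0.21, the others 0.48 to 0.62) and for Klra5 (-6.74), and high for Retn, the resistin gene (-3.44). GEN 3 was high for Krt5 (-0.49) and H2-DMa (-0.18) and low for Anxa8, an epithelial annexin gene (0.72, the others 2.25 to 2.31). GEN 1 was low for H2-DMb1 (-4.56), the adipocyte list (-1.57) and its lipid droplet gene Cidec (-6.96). Without CON 3 the median of the adipocyte list changed sign, and without GEN 1 H2-DMb1 differed by 0.07 in place of -1.18.

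Banp differed between the days by the test of the difference itself, with a change of -1.08 from GD4.5 to GD5.5.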

How the results depend on the processing

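The count of calls at GD5.5, 0 as reported, was also 0 under median scaling, no filter on dim probes, slide as a fixed or random block, the replicate block, the 8 arrays alone, marked spots kept and a 2-fold minimum, and under 2 alternatives chosen after seeing the data (slides 5 to 8 alone; the replicate block on the 8 arrays alone). It was 1 under quantile scaling (AK052106), 1 with probes above background on all arrays, 1 with a variance trend and robust fit, 2 with the mean over probes and 64 with array weights. Leaving out 1 array gave 0 to 257. Without CON 4 and GEN 4, chosen after seeing the data, it was 169.

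Normexp gave 9821 calls, 8514 of them higher, and moved the median of all genes to 0.28. GEN 1 to 3 held a few spots of local background up to 15393, and the 5th percentile of their corrected intensities was 249 to 540, against 61.9 to 66.0 on the other 5 arrays. Without those spots, an alternative chosen after seeing the data, there were 8 calls, all lower, and none of the 156 genes changed sign. Under normexp 23 of 156 genes followed changed sign, and 16 of these had differed by over 1 standard error as reported or were called there: Hsd3b5 (0.84), Extl1 (0.40), Hkdc1 (0.15), Sostdc1 (0.25), Hsd3b6 (0.12), Spdef (0.79), Dkk1 (0.93), Sp5 (0.72), Klra8 (0.12), Klrk1 (1.14), Retn (0.40), Ttr (1.33), Fut2 (0.84), Cyp3a25 (1.22), Nlrp6 (0.52) and Klra5 (0.42). With the mean over probes Synpo2 (-0.025) and Cyp2s1 (0.26) changed sign, and H2-DMb1, -1.18 as reported, ran from -1.80 to 0.070 when 1 array was left out, positive without GEN 1; the cause was not tested.

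For the change between days, 1 call as reported, there were 61 under normexp, 2 under normexp without high-background spots, 4 under quantile scaling, 3 with probes above background on all arrays, 3 with array weights, 3 with the trend, 2 with slide as a random block, 39 without CON 4 and GEN 4, and 1 to 65 when 1 array was left out. There were 0 under median scaling, slide as a fixed block, the replicate block and only the arrays of both days. The replicate block changed no other call.

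List medians kept their sign under all 25 alternatives for 16 of the 36 lists, among them MHC class II, neutrophil, natural killer cell, macrophage, estrogen-phase and endothelial genes; the EGF and LIF list turned under 12, ovary and oviduct under 7 and Hox under 6. Leaving out 1 array moved several of these medians by over 1.5 times, to 0.17 for macrophage, 0.20 for natural killer cell, 0.11 for estrogen-phase and -0.01 for endothelial genes. Within slide 8, GEN 4 against CON 4, the natural killer cell, macrophage and estrogen-phase medians had the opposite sign, at -0.48, -0.13 and -0.20. The MHC class II, neutrophil and endothelial medians kept their sign there, at 0.08, 0.63 and -0.02. Signal limits dim genes, as 20828 of 27670 were well above background on enough arrays to be tested.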

Other observations

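Further genes outside the lists, picked after their values were seen, stood lower in GEN. Ceacam10, a carcinoembryonic antigen family gene, differed by -3.31, and Anxa8 by -1.86; neither was called with all 8 arrays. The 26 genes called at GD3.5 and 20 called at GD1.5 were also read at GD5.5, from arrays that share no controls with those days. Of 20 GD3.5 genes tested here, 12 had the same sign (49.7% of all genes did), and of 17 GD1.5 genes, 14 did (52.5% of all genes). In each set 4 had the same sign with an unadjusted p under 0.05 (5.51% of all genes, in either direction). The fit holds a common estimate of spread for all days. The GD5.5 p-values are therefore not independent of the calls at GD1.5, GD3.5 or GD4.5.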
